A study of Homo sapiens with 16 samples.

Results

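Cells take up amino acids through membrane proteins of the solute carrier (SLC) families, and 10 genes for such transporters were followed here in HEK293 cells, an established human embryonic kidney line, with and without silencing of Gemin5, an RNA-binding protein of the SMN complex that also acts on translation. The genes were chosen by symbol, with earlier results of these data known. They are SLC7A11, SLC7A5, SLC3A2, SLC7A1, SLC7A3, SLC1A5, SLC1A4, SLC38A1, SLC38A2 and SLC6A9. They are 10 of the 58302 Ensembl identifiers in the count files, and each symbol matched 1 identifier. All 10 passed the filter on low counts in every fit.

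RNA was taken from cytoplasmic lysates (Input) and from the pooled heavy fractions of sucrose gradients (Polysome), which hold mRNAs that carry several ribosomes. Each of the 4 groups, Input Ctrl, Input siRNAG5, Polysome Ctrl and Polysome siRNAG5, had 4 libraries from independent cultures. The siRNAG5 cells received 100 nM of an siRNA against Gemin5. The study's text refers to Ctrl as the siRNA control and its protocols list a control siRNA, but untreated is the word for these cells in GEO's labels. Per the study's methods, cells were exposed to cycloheximide before the lysis for gradients, which holds ribosomes on the mRNA. A single siRNA sequence was used against Gemin5, so an effect of the siRNA on other mRNAs cannot be told apart from the loss of Gemin5.

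Several of these proteins work together. SLC3A2 (4F2hc, CD98 heavy chain) carries no amino acids itself and brings light chains to the plasma membrane, among them SLC7A5 (LAT1), which exchanges large neutral amino acids, and SLC7A11 (xCT), which takes up cystine in exchange for glutamate and thereby feeds glutathione synthesis. SLC7A1 and SLC7A3 carry arginine and lysine, and SLC1A5 (ASCT2) and SLC1A4 (ASCT1) exchange neutral amino acids such as serine and alanine. SLC38A1 and SLC38A2 (SNAT1 and SNAT2) import small neutral amino acids with sodium, and SLC6A9 (GlyT1) imports glycine. Many amino acid transporter genes are known targets of ATF4, the transcription factor that the integrated stress response raises when amino acids are short or eIF2 is phosphorylated, and ATF4 acts as a dimer with C/EBP proteins on a composite C/EBP-ATF element.

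Because of that background, RefSeq promoter windows of GRCh38.p14, from 250 bases before to 50 bases after an annotated start, were searched for this element, spelled TGATGNAA, on both strands. Of the 10 genes, 8 were matched in the table of windows, with 14 windows between them. SLC7A11 and SLC7A3 had no window there and were not searched, so nothing is known here of their elements. The element was found in 5 of these 14 windows, and in 3.62% of all 35116 windows of that length. The 5 sites follow on the strand of the gene, 5′ to 3′, with the element, or its reverse complement, in capitals.

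SLC1A4, chr2:64989382-64989409, plus strand: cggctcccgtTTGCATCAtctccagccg

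SLC38A1, chr12:46266503-46266530, minus strand: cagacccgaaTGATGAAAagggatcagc

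SLC7A1, chr13:29595664-29595691, minus strand: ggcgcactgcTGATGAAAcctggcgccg

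SLC1A5, chr19:46784894-46784921, minus strand: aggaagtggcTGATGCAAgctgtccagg

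SLC3A2, chr11:62881726-62881748, plus strand: gcaggactccTTACATCAgctcc

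In SLC1A4 and SLC38A1 the element began 7 and 4 bases before the annotated start. In SLC7A1 and SLC3A2 it began at base 8 and base 38 of the transcript, and in SLC1A5 it lay 97 bases before one of its starts. An antioxidant response element, spelled TGACNNNGC and known as a site of NRF2, was found in 4 of the 14 windows (SLC1A5, SLC3A2, SLC7A1 and SLC7A5) and in 13.3% of all windows. A terminal oligopyrimidine start, C followed by 4 pyrimidines at the first base of the transcript, was found in 0 of the 14 windows and in 4.07% of all windows. These are matches of letters in a fixed window and no binding was measured. Of the genes with the C/EBP-ATF element, SLC1A4 and SLC1A5 were called higher in Input, as given below, whereas SLC38A1, SLC7A1 and SLC3A2 were not. Of those searched without a match, SLC6A9 was called higher and SLC7A5 and SLC38A2 were not. A link between the element and these calls was not tested.

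Reads counted on genes ranged from 11145324 to 24511299 per library. Values are given below as CPM (reads of a gene relative to all reads counted in its library), scaled by the trimmed mean of M values (TMM) over all 16 libraries. GEMIN5 itself was at 17.9 ± 2.32 CPM in Input Ctrl and 6.72 ± 0.529 in Input siRNAG5, and at 7.44 ± 1.56 in Polysome Ctrl and 2.65 ± 0.495 in Polysome siRNAG5 (SD, n = 4 in each group), with no overlap in either fraction. The 6 marker genes of the HEK293 line were detected in every group. Libraries also differed in ways the treatment does not explain. The summed level of 17 liver markers was 82.3 to 170.5 CPM in Polysome Ctrl and 134.0 and 153.5 CPM in Input Ctrl 4 and 3, against 1.20 and 2.98 CPM in Input Ctrl 2 and 1 and 0.495 to 1.40 CPM in the 8 siRNAG5 libraries, where APOB, APOC3, APOH, FGA, SERPINA1 and AMBP were at 0. In Polysome, 1 component held 55.0% of the variance within groups, with positive scores for Ctrl 1, Ctrl 2, siRNAG5 1 and siRNAG5 4 and negative scores for the other 4 libraries. Results are therefore also given without the Ctrl libraries that hold liver reads in Input, and within each of these sets in Polysome. Polysome Ctrl has no library free of liver reads, so there the liver reads and the treatment cannot be told apart.

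The first question was whether silencing of Gemin5 changed the amount of these mRNAs in the Input. A gene was called when edgeR's quasi-likelihood test gave a Benjamini-Hochberg adjusted p under 0.05 and the log2 fold change (log2 FC) lay beyond 0.5. Of the 10 transporter genes, 5 rose in Gemin5-silenced cells (SLC7A3, SLC6A9, SLC7A11, SLC1A5 and SLC1A4) and 0 fell. Among all 14134 genes tested, 10.5% were called higher and 6.02% lower. The median log2 FC of the 10 genes was 0.57, against 0.04 over all genes, and 10 of 10 were above 0, as were 53.5% of all genes. Because the genes were chosen with earlier results of these data known, these shares describe the set and do not test it. With only Input Ctrl 1 and 2 as controls, which hold few liver reads, the same 5 genes were called. SLC7A1 was added (log2 FC 0.51, adjusted p = 0.0449), so 6 of 10 were called. That setting was chosen after the data were seen, and in it 1468 of all 14724 genes were called higher and 977 lower.

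**Figure D1:**
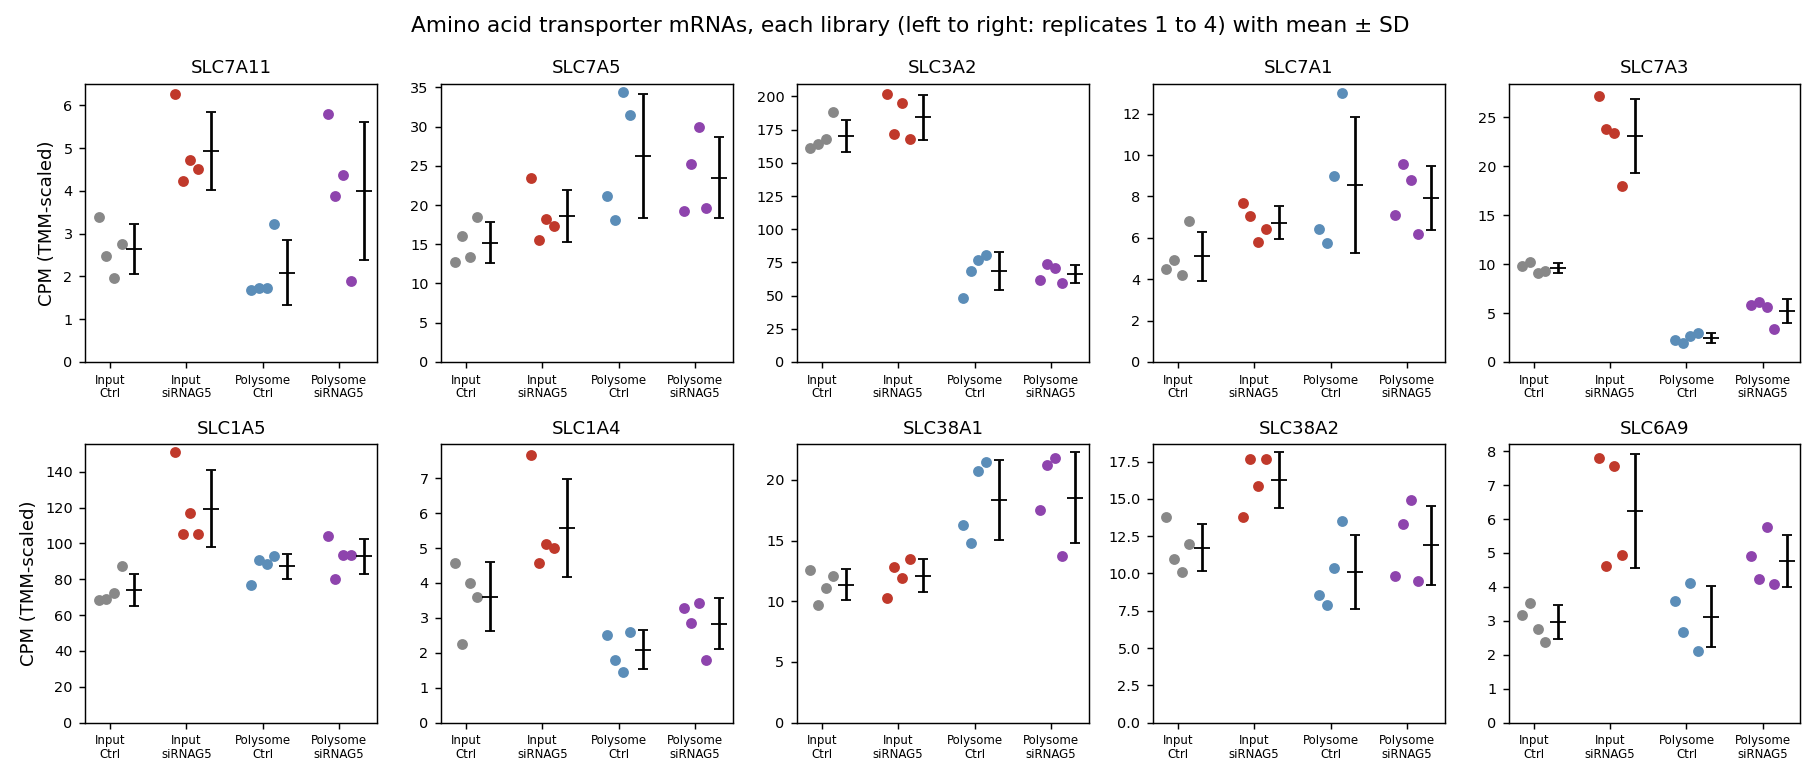
Level of each of the 10 transporter genes in every library, in TMM-scaled CPM on linear axes that start at 0, for the 4 groups of 4 libraries. Points are libraries, and the lines beside them are the group mean ± SD. In Input the siRNAG5 points of SLC7A3, SLC6A9, SLC7A11 and SLC1A5 lie above all Ctrl points, and in Polysome this is so for SLC7A3.

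The heavy chain and its light chains behaved unequally. SLC3A2 (ENSG00000168003, chr11:62856004-62888880, plus strand) was the most abundant of the 10 in CPM, at 161, 164, 168 and 188 CPM in Input Ctrl 1 to 4 and at 202, 172, 195 and 168 CPM in Input siRNAG5 1 to 4. The groups overlapped and the log2 FC of 0.12 (SE 0.07, adjusted p = 0.168) was not past the threshold. SLC7A5 (ENSG00000103257, chr16:87830023-87869507, minus strand), the LAT1 light chain, was at 12.8, 16.1, 13.4 and 18.5 CPM in Input Ctrl and at 23.4, 15.6, 18.2 and 17.3 CPM in Input siRNAG5. Only siRNAG5 1 lay clearly above the control libraries, and the log2 FC was 0.30 (SE 0.12, adjusted p = 0.0568). SLC7A11 (ENSG00000151012, chr4:138164097-138242349, minus strand), the cystine and glutamate exchanger, was at 3.38, 2.47, 1.96 and 2.75 CPM in Input Ctrl and rose to 6.26, 4.23, 4.73 and 4.52 CPM in Input siRNAG5. Each siRNAG5 library was above each Ctrl library, with a log2 FC of 0.92 (SE 0.19, adjusted p = 0.000259), a 1.89-fold increase. These SLC7A11 values rest on 22 to 34 reads per Ctrl library and 63 to 95 reads per siRNAG5 library.

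SLC7A3 and SLC7A1, the cationic amino acid transporters, both lay higher on average, to different extents. SLC7A3 (ENSG00000165349, chrX:70925579-70931125, minus strand) was at 9.85, 10.2, 9.07 and 9.29 CPM in Input Ctrl and at 27.2, 23.8, 23.4 and 18.0 CPM in Input siRNAG5. This was the largest change of the 10, a 2.41-fold increase (log2 FC 1.27, SE 0.12, adjusted p = 1.534e-09), and the lowest siRNAG5 library was well above the highest Ctrl library. SLC7A1 (ENSG00000139514, chr13:29509414-29595688, minus strand) was at 4.48, 4.94, 4.18 and 6.82 CPM in Input Ctrl and at 7.66, 7.05, 5.78 and 6.42 CPM in Input siRNAG5. Here Ctrl 4 lay within the siRNAG5 range, and the log2 FC of 0.40 (SE 0.16, adjusted p = 0.0421) passed the p but not the fold threshold. Without Ctrl 4 it was 0.56 (adjusted p = 0.00814), and this was the only 1 of 8 fits with 1 library left out that was called. Over these 8 fits the log2 FC ranged from 0.32 to 0.56 and the adjusted p from 0.00814 to 0.152.

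Both neutral amino acid exchangers of the SLC1 family rose in Input. SLC1A5 (ENSG00000105281, chr19:46774883-46788594, minus strand), the main glutamine exchanger of many proliferating cells, was at 68.3, 69.0, 72.2 and 87.2 CPM in Input Ctrl and at 151, 105, 117 and 105 CPM in Input siRNAG5. The groups did not overlap, and the 1.63-fold increase (log2 FC 0.70) had an SE of 0.09 and an adjusted p of 7.557e-07. SLC1A4 (ENSG00000115902, chr2:64988477-65023865, plus strand) was at 4.58, 2.25, 4.00 and 3.60 CPM in Input Ctrl and at 7.66, 4.56, 5.13 and 5.00 CPM in Input siRNAG5. The groups just overlapped, since siRNAG5 2 lay below Ctrl 1, and the log2 FC was 0.66 (SE 0.19, adjusted p = 0.0079). This call was lost without Ctrl 2, the lowest library (log2 FC 0.47, adjusted p = 0.0709), and without siRNAG5 1, the highest (log2 FC 0.48, adjusted p = 0.0345), and also when all 16 libraries were fitted together (log2 FC 0.64, adjusted p = 0.0889).

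Of the sodium-coupled transporters, SLC38A1 (ENSG00000111371, chr12:46183063-46270017, minus strand) was at 12.6, 9.73, 11.1 and 12.1 CPM in Input Ctrl and at 10.3, 12.8, 11.9 and 13.5 CPM in Input siRNAG5, and its groups overlapped over most of their range (log2 FC 0.11, SE 0.12, adjusted p = 0.491). SLC38A2 (ENSG00000134294, chr12:46358188-46372773, minus strand), a transporter known to be induced by amino acid shortage, was at 13.8, 11.0, 10.1 and 12.0 CPM in Input Ctrl and at 13.8, 17.7, 15.9 and 17.7 CPM in Input siRNAG5. Its groups met at Ctrl 1 and siRNAG5 1, and its log2 FC of 0.49 (SE 0.12, adjusted p = 0.00114) stood just under the fold threshold. Of 8 fits that each left out 1 library, 3 were called, those without Ctrl 1 (0.56), siRNAG5 1 (0.56) or siRNAG5 3 (0.50). The lowest log2 FC of these 8 fits was 0.43. Of 7 other settings 2 were called, 1 surrogate variable as a covariate (0.50) and no filter on low counts (0.51). Over these 7 the log2 FC went down to 0.41 and the adjusted p up to 0.0742. SLC6A9 (ENSG00000196517, chr1:43991500-44031467, minus strand), the glycine transporter, was at 3.18, 3.52, 2.76 and 2.37 CPM in Input Ctrl and at 7.79, 4.63, 7.57 and 4.94 CPM in Input siRNAG5. Here the groups did not overlap and the increase was 2.11-fold (log2 FC 1.08, SE 0.19, adjusted p = 4.393e-05). In all, the Input groups did not overlap for 4 of the 10 genes (SLC7A11, SLC7A3, SLC1A5 and SLC6A9), each higher in siRNAG5, beside 15.1% of all tested genes that were higher and 19.1% that were lower without overlap. In a bulk lysate, more cells that hold a transcript and more of it per cell cannot be told apart.

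**Figure D2:**
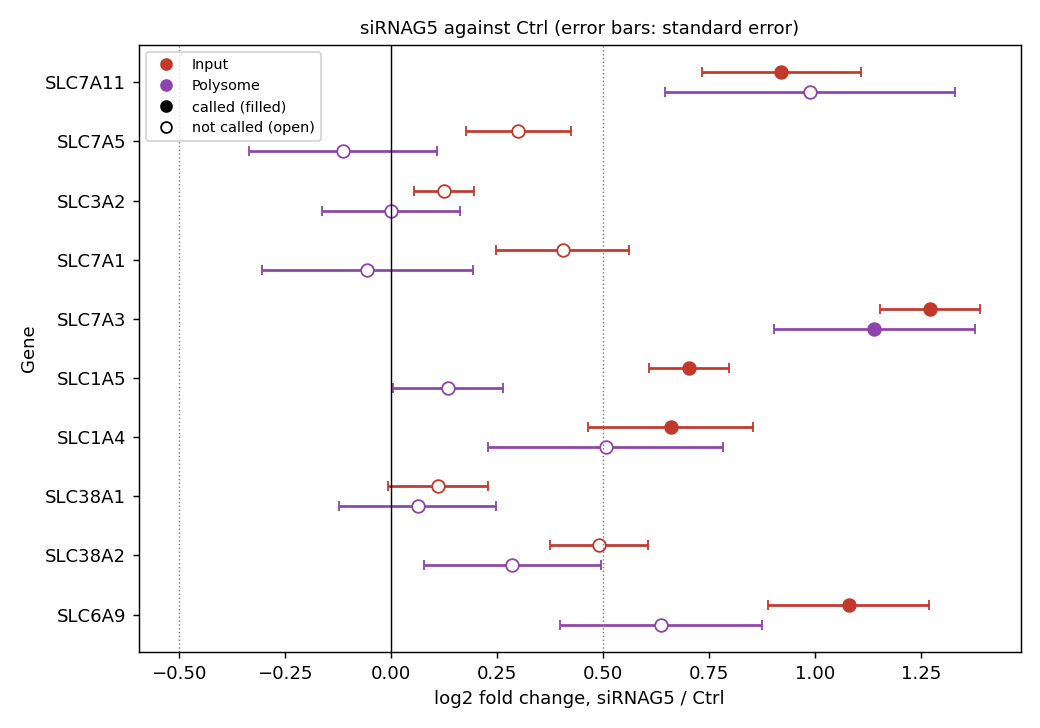
Log2 FC of siRNAG5 over Ctrl for each of the 10 genes, with its standard error, in Input and in Polysome, each fraction fitted alone over 8 libraries. SLC7A3 is past 1 in both fractions (1.27 and 1.14), whereas SLC1A5 is at 0.70 in Input and 0.13 in Polysome.

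The next question was whether the same mRNAs changed on polysomes. In Polysome 1 of the 10 genes rose, SLC7A3, and 0 fell, beside 7.95% of the 14420 genes tested that were called in either direction (3.95% higher and 4% lower). The median log2 FC of the 10 genes was 0.21, against 0.03 over all genes, and 8 of 10 were above 0, as were 53.1% of all genes. The spread between replicates was wider in this fraction, with a common biological coefficient of variation of 0.216 in Polysome against 0.0806 in Input.

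SLC7A3 was at 2.25, 1.92, 2.62 and 2.99 CPM in Polysome Ctrl 1 to 4 and at 5.79, 6.12, 5.57 and 3.41 CPM in Polysome siRNAG5 1 to 4. It was the only one of the 10 genes whose Polysome groups did not overlap, as 8.29% of all tested genes did in the same direction, and it rose 2.20-fold (log2 FC 1.14, SE 0.24, adjusted p = 0.0182). Without Polysome Ctrl 2 the log2 FC was 1.05 and the call was lost (adjusted p = 0.0725). Within the 4 libraries of positive score the log2 FC was 1.17 (adjusted p = 0.0530), and within the 4 of negative score it was 1.14 (adjusted p = 0.000282). In these smaller sets each group has 2 libraries. The sets were formed after the data were seen, from the deviations of these same libraries. Grouping libraries that resemble each other can narrow the spread within a set, so their adjusted p are descriptions only.

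SLC7A11 was at 1.67, 1.72, 1.73 and 3.23 CPM in Polysome Ctrl and at 5.79, 3.89, 4.37 and 1.89 CPM in Polysome siRNAG5. A single library of each group crossed over, Ctrl 4 being the highest control and siRNAG5 4 the lowest silenced library, each with 41 reads. The log2 FC of 0.99 (SE 0.34) was thus about as large as in Input, but the adjusted p was 0.0889. Of 8 fits that each left out 1 library, 1 passed, that without siRNAG5 4 (log2 FC 1.22, adjusted p = 0.0245). Over these 8 fits the log2 FC ranged from 0.77 to 1.25 and the adjusted p from 0.0245 to 0.236. SLC6A9 was at 3.58, 2.68, 4.13 and 2.12 CPM in Polysome Ctrl and at 4.92, 4.23, 5.77 and 4.10 CPM in Polysome siRNAG5. The lowest silenced library and the highest control differed by a few hundredths of a CPM, and the log2 FC was 0.64 (SE 0.24, adjusted p = 0.111). Within the libraries of negative score both SLC7A11 (log2 FC 0.86, adjusted p = 0.0166) and SLC6A9 (log2 FC 0.69, adjusted p = 0.0427) were called higher, so that 3 of the 10 genes were called there and 0 among the libraries of positive score. Over all genes, 1226 of 14560 were called higher in the negative set and 500 of 14583 in the positive set. As the sets were drawn from these same values, calls within them are not independent support.

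The SLC1 family members did not pass in Polysome. SLC1A5 was at 76.8, 90.6, 88.4 and 92.9 CPM in Polysome Ctrl and at 104, 80.2, 93.6 and 93.3 CPM in Polysome siRNAG5, with a log2 FC of 0.13 (SE 0.13, adjusted p = 0.533). SLC1A4 was at 2.50, 1.79, 1.45 and 2.60 CPM in Polysome Ctrl and at 3.28, 2.85, 3.42 and 1.80 CPM in Polysome siRNAG5. For SLC1A4 siRNAG5 4 lay among the controls while the other silenced libraries lay above them, and the log2 FC was 0.51 (SE 0.28, adjusted p = 0.259).

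The remaining 5 genes had log2 FC between -0.11 and 0.29 in Polysome. SLC3A2 was at 48.4, 68.4, 76.9 and 80.8 CPM in Polysome Ctrl and at 62.0, 73.5, 70.6 and 59.7 CPM in Polysome siRNAG5, with means that were nearly equal (68.6 ± 14.5 and 66.4 ± 6.67, SD, n = 4). SLC7A5 was at 21.1, 18.1, 34.4 and 31.5 CPM in Polysome Ctrl and at 19.2, 25.2, 30.0 and 19.6 CPM in Polysome siRNAG5. The 4 highest libraries of SLC7A5, Ctrl 3, Ctrl 4, siRNAG5 2 and siRNAG5 3, were the 4 with a negative score on the Polysome component, as they were for SLC3A2, and the treatment groups overlapped (log2 FC -0.11, SE 0.22, adjusted p = 0.781). SLC7A1 was at 6.41, 5.77, 8.99 and 13.0 CPM in Polysome Ctrl and at 7.12, 9.58, 8.78 and 6.18 CPM in Polysome siRNAG5, and its 4 highest libraries were those same 4 (log2 FC -0.06, SE 0.25, adjusted p = 0.913). SLC38A1 was at 16.3, 14.8, 20.7 and 21.5 CPM in Polysome Ctrl and at 17.5, 21.2, 21.8 and 13.7 CPM in Polysome siRNAG5, again highest in those 4 libraries. Its log2 FC was 0.06 (SE 0.19, adjusted p = 0.858). SLC38A2 was at 8.58, 7.90, 10.4 and 13.5 CPM in Polysome Ctrl and at 9.84, 13.3, 14.9 and 9.50 CPM in Polysome siRNAG5, also highest in those 4. Its log2 FC was 0.29 (SE 0.21, adjusted p = 0.396). The component was drawn from all filtered genes of these same libraries and held 55.0% of the variance within groups. The share of all genes that sort in this way was not counted, so the pattern is not shown to be particular to these transporters. The part of the component in these values was not tested beyond the sets given above.

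Whether the change in Polysome differed from the change in Input was then tested in 1 fit of the 16 libraries. The difference was not past the threshold for any of the 10 genes (0 called), nor for any of the 14958 genes tested (0%) with edgeR's quasi-likelihood test, where an unadjusted p under 0.05 was reached by 701 genes in the negative and 388 in the positive direction. DESeq2 called 11 genes lower and 18 higher, with 0 of the 10 among them. For 9 of the 10 genes the Polysome change was the smaller of the pair, with a median difference in log2 FC of -0.20, against -0.06 over all genes, of which 41% lay above 0. The largest was that of SLC1A5, at -0.60 (SE 0.18, unadjusted p = 0.00369, adjusted p = 0.479). With 1 surrogate variable as a covariate the difference of SLC1A5 was again -0.60 and passed (adjusted p = 0.0278). The others with a difference below -0.4 were SLC7A1 at -0.50 (SE 0.32), SLC6A9 at -0.48 (SE 0.32) and SLC7A5 at -0.45 (SE 0.28), all with an adjusted p above the threshold. SLC7A11 was the exception in sign, at 0.03 (SE 0.41), an error too wide to set its changes in the 2 fractions apart or together. A rise in Input with no call in Polysome was thus seen for SLC1A5, SLC1A4, SLC6A9 and SLC7A11. Without the surrogate variable, the quasi-likelihood test did not show it to be a difference between the fractions for any of them. With the surrogate variable, only SLC1A5 passed.

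The distribution of each mRNA between Input and Polysome was compared next, within each treatment. The library scaling sets the average gene to about no difference, so these values rank genes against one another and do not give the share of an mRNA that is on polysomes. In Ctrl cells 6 of the 10 genes were called, 3 lower and 3 higher in Polysome, beside 37.6% of all 14958 genes (18.2% lower and 19.4% higher). In siRNAG5 cells 4 were called, 3 lower and 1 higher, beside 47% of all genes (25.4% lower and 21.5% higher). The share of reads that aligned to several places, which are not counted, was 4.88 to 6.04% in Input and 21.2 to 42.4% in Polysome, and its part in these values was not tested.

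SLC7A3 was the most depleted of the 10 from Polysome, with a fall from 9.60 ± 0.508 CPM in Input to 2.45 ± 0.462 CPM in Polysome in Ctrl cells (log2 FC -1.97, SE 0.20, adjusted p = 2.589e-07) and from 23.1 ± 3.80 to 5.22 ± 1.23 CPM in siRNAG5 cells (log2 FC -2.14, SE 0.17, adjusted p = 9.553e-09; SD, n = 4 in each group). The gene with the largest rise on silencing was also the one least represented in Polysome relative to Input. SLC3A2 fell from 170.4 ± 12.2 to 68.6 ± 14.5 CPM in Ctrl cells (log2 FC -1.31, SE 0.14, adjusted p = 4.658e-07) and by 1.47 on the log2 scale in siRNAG5 cells (SE 0.14, adjusted p = 5.671e-08). SLC1A4 fell by 0.80 in Ctrl cells (SE 0.28, adjusted p = 0.0243) and by 0.97 in siRNAG5 cells (SE 0.24, adjusted p = 0.00209). For SLC7A3 and SLC3A2 the Input and Polysome libraries did not overlap in either treatment, nor did those of SLC1A4 in siRNAG5 cells, beside 22.1% of all genes lower without overlap in Ctrl and 27.3% in siRNAG5 cells. The call of SLC1A4 in Ctrl was lost without any 1 of Input Ctrl 1 (log2 FC -0.66), Input Ctrl 3 (-0.74), Polysome Ctrl 2 (-0.74) or Polysome Ctrl 3 (-0.64).

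SLC38A1 was higher in Polysome in both treatments, with log2 FC of 0.69 in Ctrl (SE 0.16, adjusted p = 0.002) and 0.61 in siRNAG5 (SE 0.16, adjusted p = 0.00273), and no overlap in either, beside 19.9% of all genes higher without overlap in Ctrl and 22.7% in siRNAG5 cells. SLC7A5 and SLC7A1 were higher in Polysome in Ctrl cells, by log2 FC of 0.79 (SE 0.20, adjusted p = 0.00386) and 0.74 (SE 0.23, adjusted p = 0.0143). For both genes the Input and Polysome libraries of Ctrl cells overlapped. SLC7A5 was at 18.5 CPM in Input Ctrl 4 and at 18.1 CPM in Polysome Ctrl 2. In siRNAG5 cells SLC7A5 was at 0.34 (SE 0.20, adjusted p = 0.152) and SLC7A1 at 0.24 (SE 0.22, adjusted p = 0.355), and the difference between treatments, given above, did not pass. The SLC7A1 call in Ctrl was lost without Input Ctrl 3 (log2 FC 0.66, adjusted p = 0.0502) or Polysome Ctrl 4 (log2 FC 0.48, adjusted p = 0.0828).

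SLC1A5 was at 0.23 in Ctrl cells (SE 0.13, adjusted p = 0.151) and at -0.37 in siRNAG5 cells (SE 0.13, adjusted p = 0.0204), where all 4 Polysome libraries lay below all 4 Input libraries but the fold threshold was not passed. SLC38A2 was at -0.22 and -0.45, SLC6A9 at 0.09 and -0.39, and SLC7A11 at -0.34 and -0.31 in Ctrl and siRNAG5 cells, none of them called. For SLC38A2 in siRNAG5 cells, 2 of 16 fits with 1 library left out were called, those without Input siRNAG5 1 (-0.52) or Polysome siRNAG5 3 (-0.54). Of 6 other settings 1 was called, that with 1 surrogate variable (-0.66, adjusted p = 1.363e-05). The 10 genes held mRNAs on both sides, and the heavy chain SLC3A2 and its light chain SLC7A5 lay on opposite sides in Ctrl cells.

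**Figure D3:**
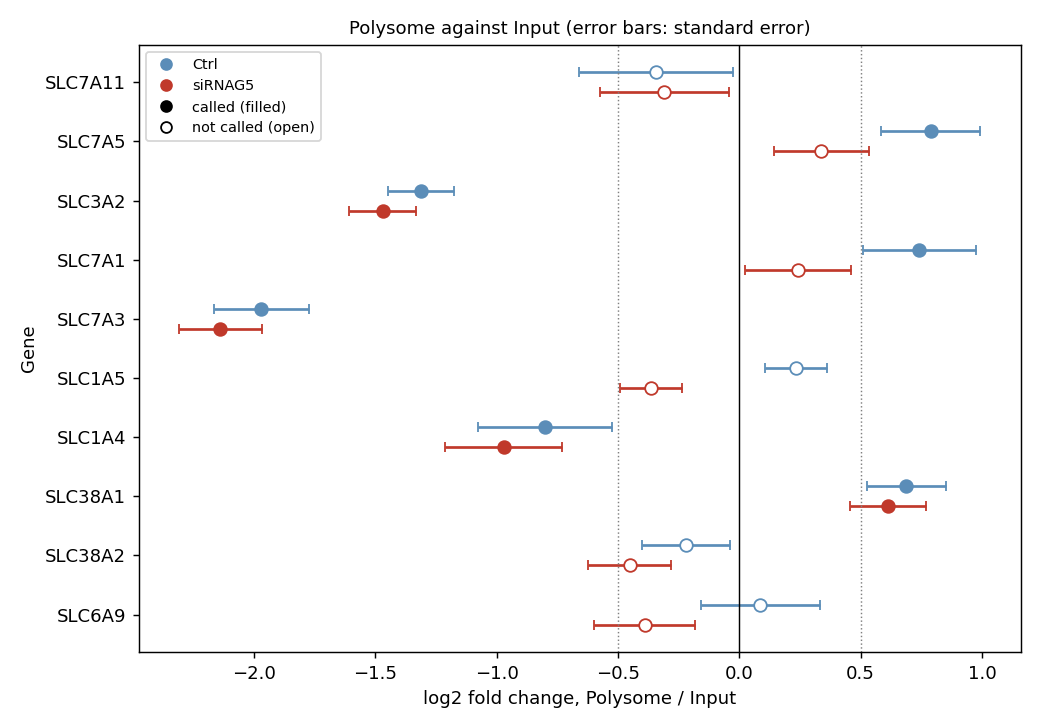
Log2 FC of Polysome over Input for each of the 10 genes, with its standard error, in Ctrl and in siRNAG5 cells, from 1 fit of 16 libraries. SLC7A3, SLC3A2 and SLC1A4 lie below -0.5 in both treatments and SLC38A1 above 0.5 in both.

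Levels were compared between genes after division by the length of the merged exons, in CPM per kilobase. In Input Ctrl the order was SLC3A2 (26.7), SLC1A5 (22.3), SLC7A3 (4.23), SLC7A5 (3.19), SLC38A2 (1.81), SLC38A1 (1.14), SLC7A1 (0.664), SLC6A9 (0.563), SLC1A4 (0.519) and SLC7A11 (0.274) CPM per kilobase. The ranges of the 4 libraries overlapped between SLC3A2 and SLC1A5, between SLC7A1 and SLC6A9, between SLC6A9 and SLC1A4, and between SLC1A4 and SLC7A11, and these neighbours are not apart beyond their spread. In Input siRNAG5, SLC1A5 (35.9) stood above SLC3A2 (28.8) with ranges that touched, SLC7A3 reached 10.2, and SLC7A11 was again the lowest at 0.512 CPM per kilobase. Polysome Ctrl was led by SLC1A5 (26.2), clear of SLC3A2 (10.7) and SLC7A5 (5.51), while SLC7A3 (1.08) was in place 7. The merged exons of SLC3A2 span 6392 bases but its longest transcript 2843, and with the latter length SLC3A2 was first in both Input groups, at 59.9 CPM per kilobase in Ctrl and 64.7 in siRNAG5 against 41.5 for SLC1A5. In Polysome Ctrl, SLC1A5 (30.2) and SLC3A2 (24.1) then overlapped, so the order of these genes depends on the length taken. Of the 45 pairs of genes, 40 were apart without overlap in Input Ctrl, 39 in Input siRNAG5, 38 in Polysome Ctrl and 40 in Polysome siRNAG5.

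The light chains depend on SLC3A2 for their place in the membrane, and their levels per length were set against it in each library. SLC7A5 was at 11.9 ± 1.42% of SLC3A2 in Input Ctrl and 13.5 ± 1.55% in Input siRNAG5, and at 51.6 ± 11.2% in Polysome Ctrl and 47.2 ± 6.80% in Polysome siRNAG5 (SD, n = 4 in each group). SLC7A11 was at 1.03 ± 0.261% of SLC3A2 in Input Ctrl and 1.77 ± 0.207% in Input siRNAG5, and at 2.02 ± 0.538% and 3.97 ± 1.70% in the corresponding Polysome groups. The size of these percentages depends on the length taken for SLC3A2, whereas the length is the same in every group. For SLC7A5 the Input and Polysome ranges were far apart, with a highest Input value of 15.6% and a lowest Polysome value of 35.6%, and for SLC7A11 the lowest Input siRNAG5 value of 1.61% was above the highest Input Ctrl value of 1.39%.

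The 10 genes did not vary as a block. Across the 16 libraries, after the mean of each fraction had been subtracted from log2 CPM, Pearson's r between members ranged from 0.01 to 0.88 over the 45 pairs, with a median of 0.50. The closest pairs were SLC7A11 with SLC7A3 (r = 0.88), SLC7A5 with SLC7A1 (r = 0.83) and SLC7A3 with SLC6A9 (r = 0.82). Values of a library share its depth and scaling, and treatment is part of what varies, so these are descriptions. Among 11582 genes with a mean log2 CPM of at least 1, the patterns most like SLC7A11 were those of EPRS1, the glutamyl-prolyl-tRNA synthetase (r = 0.90), MYO6 (r = 0.89) and SERPINF1 (r = 0.89). Those most like SLC7A5 were NUP210 (r = 0.90), PGBD5 (r = 0.87) and SLC39A14 (r = 0.87), and those most like SLC3A2 were ARFGAP2 (r = 0.94), PGD (r = 0.94) and GTF2F1 (r = 0.94).

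Other amino acid transporters of the plasma membrane and lysosome were described from a list of 44 genes, of which 20 were tested in each fraction. In Input 2 of the 20 rose and 4 fell, with a median log2 FC of -0.14, beside 10.5% of all genes called higher and 6.02% called lower. SLC38A3 (SNAT3), a glutamine transporter, rose (log2 FC 1.06, SE 0.22, adjusted p = 0.000258), as did SLC43A1 (LAT3; log2 FC 0.55, adjusted p = 0.000283). SLC38A7 fell by 0.79 (adjusted p = 0.00652), and SLC7A6, a further light chain of SLC3A2, by 0.65 (adjusted p = 0.000133). SLC1A3, a glutamate transporter, fell by 0.57 on the log2 scale (adjusted p = 0.000562). In Polysome 1 of 20 rose, SLC38A3 again (log2 FC 0.90, adjusted p = 0.0487), and 2 fell, SLC38A10 (log2 FC -0.69, adjusted p = 0.0356) and SLC16A10 (log2 FC -0.58, adjusted p = 0.0482), with a median log2 FC of -0.23, beside 3.95% of all genes called higher and 4% called lower. Of 10 mitochondrial amino acid carriers 8 were tested, and 0 were called in either direction in either fraction, with log2 FC from -0.44 to 0.05 in Input. SLC25A15, the mitochondrial ornithine carrier, was the lowest of them in Input (log2 FC -0.44, adjusted p = 0.00342), short of the fold threshold.

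The regulators and targets around the transporters were described from 3 further lists. These lists too were chosen with earlier results of these data known. Of 16 genes of ATF4 and the integrated stress response 15 were tested (ASNS did not pass the filter). In Input 10 rose and 1 fell, with a median log2 FC of 0.86, beside 10.5% of all genes called higher and 6.02% called lower. NUPR1 (log2 FC 2.25, adjusted p = 4.224e-11), CHAC1, which degrades glutathione (log2 FC 1.85, adjusted p = 1.290e-11), and VLDLR (log2 FC 1.60, adjusted p = 2.114e-07) led the increases. ATF5, a transcription factor, fell by 1.03 (adjusted p = 9.448e-06). ATF4 mRNA itself was at 1444 ± 88.0 CPM in Input Ctrl and 1732 ± 113 CPM in Input siRNAG5, a log2 FC of 0.28 (SE 0.06, adjusted p = 0.000596) that was under the fold threshold. ATF4 protein is set mainly at translation and was not measured here. In Polysome 7 of the 15 rose and 1 fell, with a median log2 FC of 0.68, beside 3.95% of all genes called higher and 4% called lower. NUPR1 (log2 FC 2.12, adjusted p = 0.0014) and CHAC1 (log2 FC 2.01, adjusted p = 0.000134) led again.

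Of 13 NRF2 and glutathione genes, 11 were tested in Input, where 0 rose and 2 fell, and 12 in Polysome, where 0 rose and 1 fell. Of all genes, 10.5% were called higher and 6.02% lower in Input, and 3.95% higher and 4% lower in Polysome. So few calls in a short list are not set apart from these shares. NQO1, a classical NRF2 target, fell by 0.67 in Input (adjusted p = 6.231e-06) and by 0.78 in Polysome (adjusted p = 0.0122) on the log2 scale. GCLM, a subunit of the enzyme that starts glutathione synthesis, fell by 0.56 in Input (adjusted p = 1.768e-05). GSS, the glutathione synthetase, was higher in Input without overlap, at a log2 FC of 0.496 (adjusted p = 3.031e-06) that was just under the fold threshold, and at 0.49 in Polysome (adjusted p = 0.0757). Lower in Input without overlap, also short of that threshold, were GPX4 (log2 FC -0.48, adjusted p = 1.205e-07) and TXNRD1 (-0.47, adjusted p = 6.622e-05). In Polysome GPX4 was at -0.93 (adjusted p = 0.102) and TXNRD1 at -0.18 (adjusted p = 0.600). Of the 11 genes tested in Input 2 were above 0, with a median log2 FC of -0.12. Of 14 enzymes of glutamine and glutamate metabolism 13 were tested, and 0 were called in either direction in Input or Polysome, with median log2 FC of 0.12 and 0.11.

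**Figure D4:**
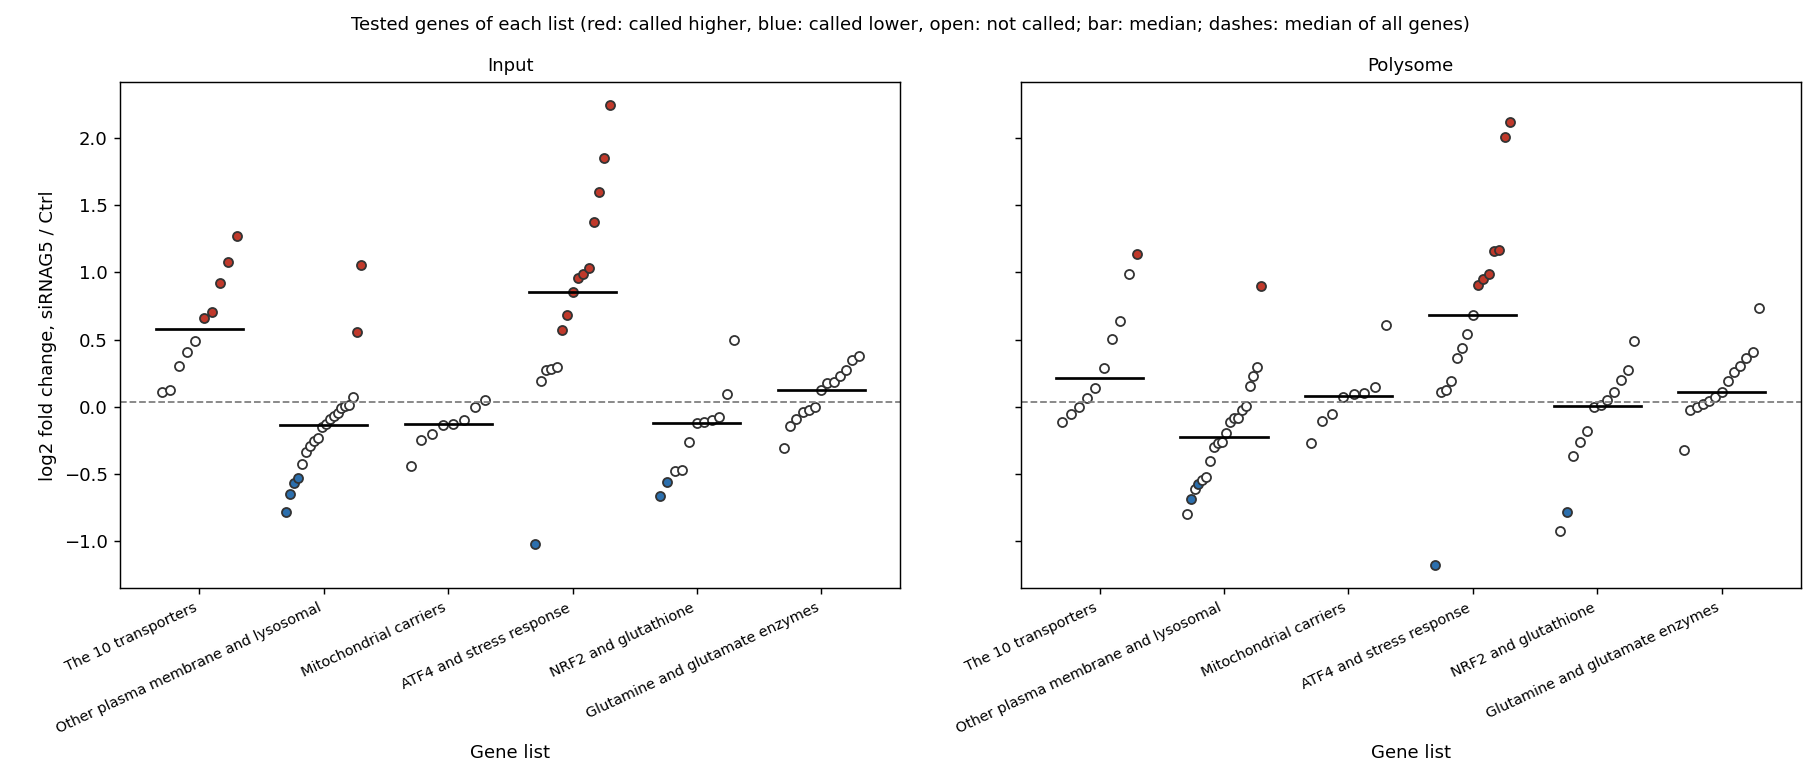
Log2 FC of siRNAG5 over Ctrl of each tested gene in the 10 transporters and 5 further lists, in Input and in Polysome; red points are called higher, blue points called lower and open points not called, bars are list medians and the dashed line is the median of all genes. The 10 transporters (median 0.57) and the stress response list (median 0.86) are the lists with medians above 0.5 in Input.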

How the data were processed

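RNA-seq counts of 16 libraries were used. Per the paper's methods, stranded poly(A) libraries were read as 100-base pairs and quantified with QoRTs. The authors deposited whole-number counts per Ensembl gene, without normalization, after alignment to GRCh38 (Ensembl release 91) with STAR 2.5.3a, a version also in the submitters' processing notes. Reads outside the genes were left out of library sizes: 0.667 to 1.33% of reads fell on no feature, 4.14 to 7.41% were ambiguous and 4.88 to 42.4% not unique. Whether strand was used in counting is not given in the sources used here, so reads of overlapping antisense genes may not be told apart. Errors are SD or SE between replicates.

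Symbols, coordinates and lengths came from GENCODE release 44, which named 57532 identifiers. Groups came from the sample labels, and replicates are independent cultures. Per the study's text, Input and Polysome RNA came from the same lysates, and the labels number both; deviations of same-numbered Input and Polysome libraries correlated at -0.07 to 0.19 in Ctrl and -0.21 to 0.22 in siRNAG5, with 2 of 4 closest to their own number in each. Counts of no replicate pair agreed within sampling noise (chi-square per gene 3.17 to 91.3 over 24 pairs).

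Changes on silencing were tested separately in Input and in Polysome (8 libraries each) by the quasi-likelihood test of edgeR 4.0.16, run in R 4.3.3 after TMM scaling and the filterByExpr filter, with a term for treatment and Benjamini-Hochberg adjustment over all genes tested. Polysome against Input and the difference between changes were fitted over 16 libraries. Displayed CPM use 1 scaling over 16 libraries, so their ratios can differ slightly from fitted changes. The scripts were tested on simulated data. Figures were drawn with matplotlib 3.10.9 in Python 3.11.15.

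Alternatives were DESeq2 1.42.0, RLE size factors, no filter, 1 surrogate variable (sva 3.50.0), the replicate number as a block, other sets of libraries, and each library left out. The transporter genes and lists were chosen with earlier results of these data known. Named genes were all 10 transporters and GEMIN5, at most 3 called genes per direction of each list, and the 3 patterns most like SLC7A11, SLC7A5 and SLC3A2. The mitochondrial carrier SLC25A15, ATF4, GSS, GPX4, TXNRD1 and ASNS were named after their values were seen. Proteins and transport were not measured here.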

Additional observations from a re-analysis of the deposited data

Results flagged for a closer look

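In 44 sets of 4 libraries (the 10 transporter genes and GEMIN5 in 4 groups), 1 library stood apart from the others of its group by Dixon's criterion, where chance gives about 1 in 20. This was SLC7A11 in Polysome Ctrl 4, at 3.23 CPM, whose gap to the next library was 0.958 of the range of the group. The other Polysome Ctrl libraries were at 1.67 to 1.73 CPM, on 20 to 31 reads, against 41 reads in Ctrl 4.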

How the results depend on the processing

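Over 960 alternative values of single transporter genes, 929 stayed on the same side of the thresholds, 13 fell below them, 18 passed them, and 0 called values changed sign. Of the values that were not called, 30 changed sign. In Polysome, where 1 of the 10 genes was called, 2 were called without a filter, 3 with 1 surrogate variable and 2 with all 16 libraries in 1 fit, and leaving out 1 library gave 0 (without Polysome Ctrl 2) to 2 (without Polysome siRNAG5 4). All genes called in Polysome were 1146 of 14420, against 1941 of 14420 with DESeq2 and 2966 of 14420 with 1 surrogate variable. Without a filter they were 1766 of 27384, and with all 16 libraries 2597 of 14958. Leaving out 1 library gave 189 of 14705 (without Polysome Ctrl 2) to 1523 of 14606. Without Ctrl 4 it gave 581, and without siRNAG5 1, 2 and 3 it gave 518, 512 and 534. Chosen after seeing the data were the library sets. Polysome libraries of positive score gave 0 of the 10 genes and those of negative score 3, with 1306 of 14583 and 2677 of 14560 genes in all. Liver-poor Input Ctrl gave 6, with 2445 of 14724 in all. For the difference between fractions, 0 of 14958 genes became 29 with DESeq2 and 375 with 1 surrogate variable (1 of the 10 genes, SLC1A5). Without a filter 57 of 29591 were called, and 0 to 1 when 1 library was left out (1 without Polysome siRNAG5 4). SLC7A11 was called in each Polysome fit that called 2 or 3 of the 10 genes, and SLC6A9 with 1 surrogate variable and in the negative set. In Polysome against Input with 1 surrogate variable, SLC7A1 in Ctrl (log2 FC 0.49) and SLC38A1 in siRNAG5 (0.46) lost their calls and SLC38A2 in siRNAG5 (-0.66) gained one. The causes of these shifts were not tested. Leaving out 1 library gave 4 to 6 of the 10 genes called in Input, beside 1893 of 14423 to 2494 of 14399 genes in all. In Polysome against Input it gave 4 to 6 in Ctrl, beside 5064 of 15169 to 5829 of 15173 genes in all. In siRNAG5 it gave 4 to 5, beside 6429 of 15093 to 7420 of 15118 genes in all.

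With the replicate number as a block, shared by Ctrl and siRNAG5 within a fraction, 5 of the 10 genes were called in Input (2313 of all genes) and 1 in Polysome (1002). These libraries share only a number: correlations of same-numbered deviations were -0.03 to 0.07 in Input and -0.53 to 0.48 in Polysome, and of 4 numbers 1 and 0 correlated best with their own. With a block for each Input and Polysome pair of the same treatment and number, 6 of the 10 genes were called in Ctrl (5646 of all 14958 genes). In siRNAG5 4 were called (7108 of all 14958 genes), and for the difference 0 (0 of all genes). No call of a transporter gene changed under either block. Depth limits the low genes, such as SLC7A11 with 20 to 113 reads per library and SLC1A4 with 26 to 115.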

Other observations

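Beside the transporters, the enzymes of glutamine and glutamate metabolism leaned to one side between the fractions. In Polysome against Input, 6 of the 13 tested were called lower in Ctrl cells and 7 in siRNAG5 cells, and 0 were called higher in either, with median log2 FC of -0.51 and -0.55, where 18.2% and 25.4% of all genes were called lower and 19.4% and 21.5% higher. Of the 20 other plasma membrane and lysosomal transporters, 6 were called lower in each treatment, and 0 higher in Ctrl and 3 higher in siRNAG5. Among the 8 mitochondrial carriers 2 were lower and 2 higher in Ctrl cells, and 0 lower and 3 higher in siRNAG5 cells, to be read against the same shares of all genes. The 2 treatments were fitted together, and differences between them were not past the threshold for any gene of these lists (0 called).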
